A study of Mus musculus with 24 samples.

Results

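The 9 genes described here encode enzymes of the squalene-to-cholesterol branch of sterol synthesis: Fdft1, Sqle, Lss, Cyp51, Nsdhl, Hsd17b7, Ebp, Sc5d and Dhcr7, in pathway order. They were chosen by name, from the known pathway, but with earlier results of these data known. They were followed in whole adrenal glands of mice with and without floxed deletion of Prkar1a. Each of the 9 was found under its symbol, each with 1 probe set on the array. All 9 stood over log2 5 on all 24 arrays, and so entered the 14411 genes tested out of 21957 genes with a symbol of their own.

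Cholesterol is made from acetyl-CoA through mevalonate, farnesyl diphosphate and squalene. Squalene is then oxidised and cyclised to lanosterol, which loses its methyl groups and has its double bonds moved or reduced to give cholesterol. Transcription of these genes is driven by the SREBP-2 transcription factor, which SCAP carries out of the endoplasmic reticulum when sterol is low and INSIG proteins hold back when it is high. In the adrenal cortex cholesterol is the precursor of all steroid hormones, and cells take it up from lipoproteins as well as making it. The pituitary hormone ACTH acts on these cells through cyclic AMP and protein kinase A. Prkar1a encodes a regulatory subunit that holds the catalytic subunits of that kinase inactive.

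The study set KO against WT adrenals in females, in intact males and in males gonadectomised during the last 2 months (GDX), with 4 arrays in each of 6 groups. All mice were 7 months old and of mixed sv129-C57Bl/6 background, and RNA came from the whole gland, medulla included. All KO mice were Prkar1a fl/fl with 1 copy of Cre (cre/+) and mTmG/mTmG, the membrane reporter that turns from red to green where Cre has acted. Cre sits in the Cyp11b2 locus, whose product makes aldosterone in the zona glomerulosa, so recombination is driven by that gene's promoter. WT females were Prkar1a fl/+ with cre/+ and mTmG/mTmG, heterozygous for the floxed gene in the presence of Cre. The intact WT males were Prkar1a fl/fl without Cre (+/+) and mTmG/mTmG. The 4 WT GDX males differed among themselves. Array 1 was Prkar1a +/+ without Cre, arrays 2 and 3 were Prkar1a +/+ with cre/+, and array 4 was Prkar1a fl/+ with cre/+. All of these were mTmG/mTmG but array 2, which was mTmG/+. In intact males, therefore, presence of Cre and deletion of Prkar1a cannot be told apart. A KO effect that differs between sexes, or between GDX and intact males, cannot be told apart from the difference between their controls. Between WT groups, sex or gonadectomy cannot be told apart from Prkar1a genotype and Cre.

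Values are log2 RMA signals, so a difference of 1 is a doubling. Array medians lay between 5.20 and 5.29. Prkar1a itself averaged 8.51 ± 0.05 in WT females and 7.08 ± 0.32 in KO females (SD, n = 4 here and below). It fell by 1.43 ± 0.23 (standard error, limma, adjusted p = 5.83e-05). The KO change was -0.92 ± 0.23 in intact males (limma, adjusted p = 0.16) and -1.19 ± 0.23 in GDX males (limma, adjusted p = 0.00477). In each of the 3 pairs of groups no KO array reached the lowest WT array, and KO intact males were the most spread, from 6.89 to 8.47. In bulk RNA, fewer cells that express a gene and less RNA per cell cannot be told apart.

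The sequences before the start sites of these genes are shown because all 9 genes rose together in KO females. RefSeq promoter entries on GRCm38.p6, covering 250 bases before to 50 bases after an annotated start, matched 7 of the 9 genes with 9 promoters, all but Fdft1 and Sqle. The 250 bases before the start are printed for 4 of them, 5′ to 3′ on the gene's strand, with CCAAT or its reverse complement in capitals. CCAAT is the core of the site bound by NF-Y, a factor known to act beside SREBP-2 on sterol genes. Cyp51 and Hsd17b7 had the largest KO changes among the 7 genes, Nsdhl held the most CCAAT sites, and Dhcr7 was the single member called in GDX males. The stretches are chr5:4104698-4104947 (minus strand) for Cyp51, chrX:72918271-72918520 (plus strand) for Nsdhl, chr1:169969206-169969455 (minus strand) for Hsd17b7 and chr7:143829964-143830213 (plus strand) for Dhcr7, at the start farthest into the gene of its 3 annotated ones.
Cyp51: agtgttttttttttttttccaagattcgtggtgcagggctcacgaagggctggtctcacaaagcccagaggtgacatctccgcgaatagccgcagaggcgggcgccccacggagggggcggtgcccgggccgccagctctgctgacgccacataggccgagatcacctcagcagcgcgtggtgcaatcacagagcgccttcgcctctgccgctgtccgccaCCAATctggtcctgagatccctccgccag
Nsdhl: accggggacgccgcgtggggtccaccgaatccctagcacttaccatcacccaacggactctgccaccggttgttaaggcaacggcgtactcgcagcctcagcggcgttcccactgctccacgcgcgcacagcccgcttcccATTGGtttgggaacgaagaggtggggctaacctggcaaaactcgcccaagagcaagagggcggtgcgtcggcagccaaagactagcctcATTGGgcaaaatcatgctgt
Hsd17b7: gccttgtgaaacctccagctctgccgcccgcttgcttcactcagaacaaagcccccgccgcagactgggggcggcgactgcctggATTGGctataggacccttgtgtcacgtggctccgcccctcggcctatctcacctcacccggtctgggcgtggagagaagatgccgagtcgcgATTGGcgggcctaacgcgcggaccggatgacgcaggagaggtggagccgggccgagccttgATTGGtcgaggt
Dhcr7: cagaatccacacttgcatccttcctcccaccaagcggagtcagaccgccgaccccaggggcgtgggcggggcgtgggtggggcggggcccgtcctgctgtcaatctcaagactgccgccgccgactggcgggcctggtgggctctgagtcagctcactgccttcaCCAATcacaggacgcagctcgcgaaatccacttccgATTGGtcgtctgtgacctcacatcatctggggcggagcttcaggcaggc

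Both strands of all 32851 mouse promoters of the same length were searched for 6 motifs. CCAAT was found in at least 1 promoter of 7 of the 7 genes, in 7 of their 9 promoters and at 14 sites, against 37.4% of all promoters. Nsdhl held 4 of these sites, 2 of them in the 50 bases after the start and so not printed, and Hsd17b7 held 3. Of the 3 promoters of Dhcr7 only the printed one held CCAAT. The GC box GGGCGG, bound by Sp1, was found in 8 of the 9 promoters, against 35.7% of all. The sterol regulatory element of the LDL receptor gene, searched letter for letter, was found in 0 of the 9 (0.0913% of all promoters), and so was the looser form TCACNCCAC (1.24%). The cyclic AMP response element TGACGTCA was found in 0 of the 9 (1.79%). The steroidogenic factor 1 site CAAGGTCA was found in 1, the first promoter of Dhcr7 (1.56%). No site of one motif overlapped a site of another. A match of letters describes the sequence alone, and the absence of a match says only that these letters were not in this window.

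All 9 enzyme genes rose in KO females, and this was the comparison in which they moved furthest. The changes ran from 1.00 (Ebp) to 2.50 (Sqle) with a median of 1.52, while the median over all genes tested was -0.02. For all 9 the 4 KO arrays stood above the 4 WT arrays. KO and WT females differed over much of the transcriptome. Of all genes tested, 32.6% were called in either direction, 13.9% were called higher, and 14.0% were higher without overlap of the arrays. The test was a contrast of group means in 1 limma model of all 24 arrays, two-sided, with Benjamini-Hochberg adjustment over all genes tested and a call at an adjusted p of 0.05. All adjusted p-values below are from this fit unless another is named.

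**Figure D1:**
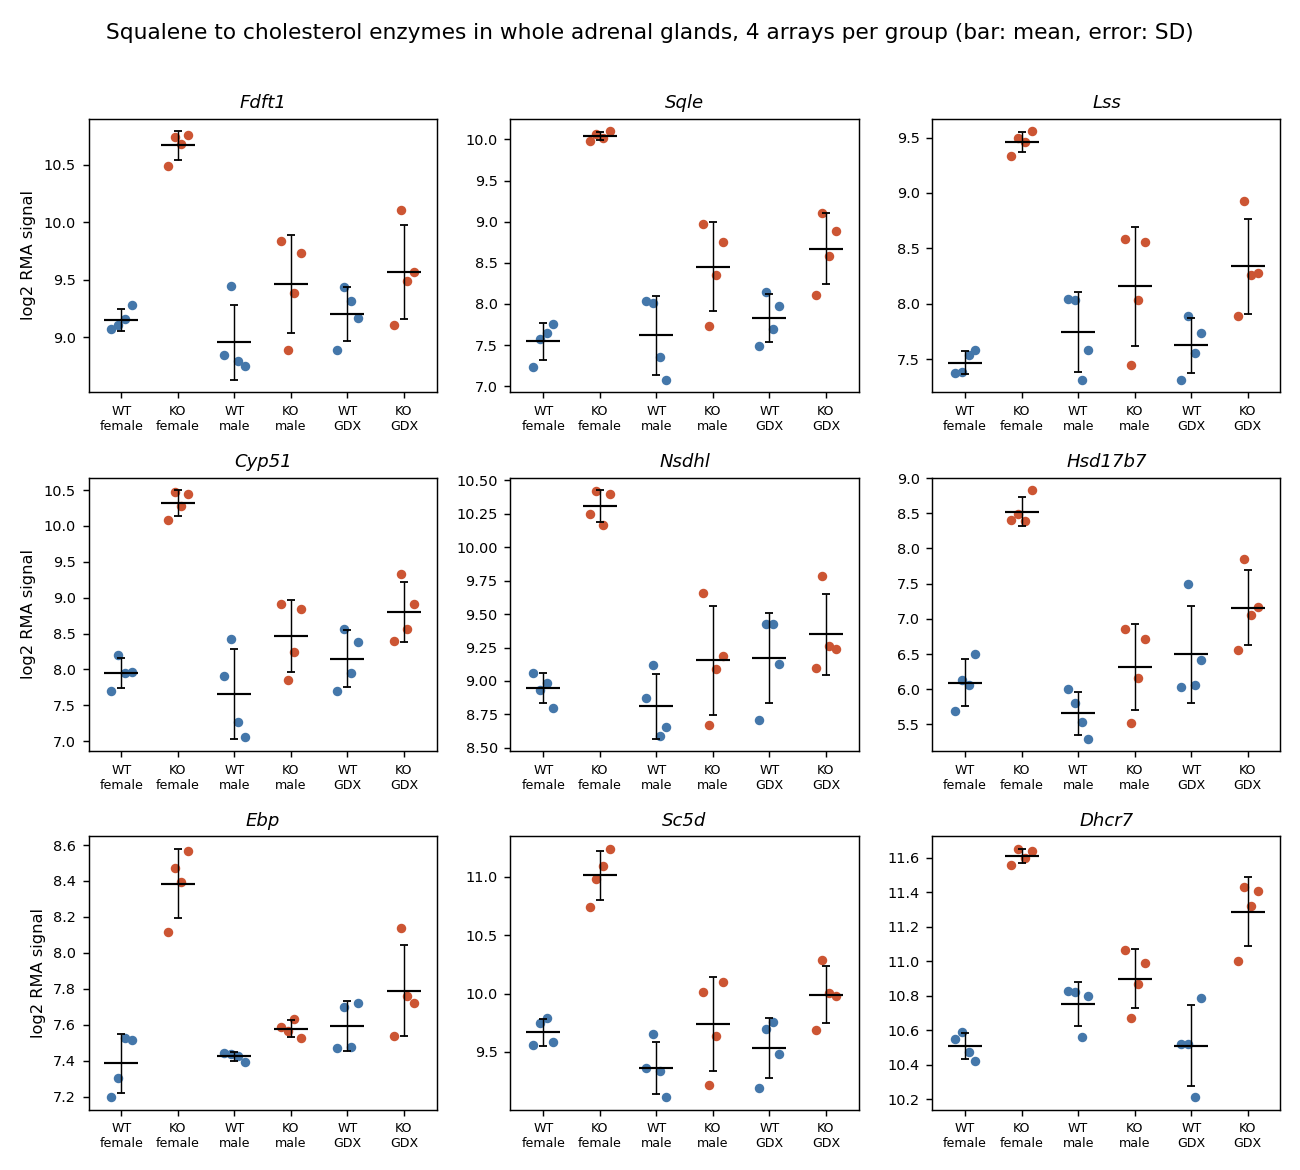
Log2 RMA signal of each of the 9 enzyme genes in the 6 groups, 1 point per array (4 per group), with the group mean as a bar and the SD as error; each panel has its own axis, which does not start at 0. In every panel the 4 KO female arrays lie above the 4 WT female arrays, while KO and WT males overlap in most panels.

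Fdft1 encodes squalene synthase, which joins farnesyl diphosphate molecules to squalene and commits them to sterols. Its 4 WT female arrays read 9.07, 9.10, 9.15 and 9.28, in array order, and the 4 KO female arrays read 10.49, 10.75, 10.68 and 10.76. The change was 1.52 ± 0.20 (limma, adjusted p = 7.14e-06), and the lowest KO array stood 1 log2 unit or more above every WT array. Intact males read 8.84, 9.44, 8.79 and 8.75 in WT and 9.83, 8.89, 9.38 and 9.73 in KO. GDX males read 8.89, 9.43, 9.32 and 9.17 in WT and 9.10, 10.11, 9.49 and 9.56 in KO. KO and WT overlapped in both kinds of male, and WT intact array 2 stood at the level of the KO males.

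Sqle encodes squalene epoxidase, a rate-limiting step of the branch and the target of antifungal and sterol-lowering compounds. WT females read 7.23, 7.57, 7.64 and 7.75, and KO females 9.98, 10.07, 10.02 and 10.10. This was the largest rise among the members, 2.50 ± 0.25 or 5.64-fold (limma, adjusted p = 3.17e-07), and KO females varied little among themselves (SD 0.05). Intact males read 8.03, 8.01, 7.35 and 7.08 in WT and 8.97, 7.74, 8.35 and 8.75 in KO. GDX males read 7.49, 8.14, 7.70 and 7.98 in WT and 8.11, 9.11, 8.58 and 8.88 in KO. In each kind of male 1 KO array, array 2 of the intact and array 1 of the GDX group, lay within the WT range.

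Lss encodes lanosterol synthase, the cyclase that closes the sterol rings. Levels were 7.37, 7.39, 7.54 and 7.58 in WT females and 9.34, 9.49, 9.46 and 9.56 in KO females, a rise of 1.99 ± 0.22 (limma, adjusted p = 1.08e-06). In intact males they were 8.05, 8.04, 7.32 and 7.58 in WT and 8.58, 7.45, 8.04 and 8.56 in KO, with overlap. In GDX males they were 7.32, 7.90, 7.56 and 7.74 in WT and 7.90, 8.92, 8.26 and 8.28 in KO. The lowest KO GDX array and the highest WT GDX array met at 7.90 after rounding but did not cross.

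Cyp51 encodes lanosterol 14-demethylase, the first step after ring closure. It read 7.70, 8.20, 7.95 and 7.97 in WT females and 10.08, 10.48, 10.27 and 10.45 in KO females, a rise of 2.37 ± 0.27 or 5.16-fold (limma, adjusted p = 1.78e-06). WT intact males were the most variable group for this gene (7.90, 8.42, 7.26 and 7.05), and KO intact males read 8.91, 7.85, 8.25 and 8.84. GDX males read 7.70, 8.57, 7.95 and 8.38 in WT and 8.40, 9.33, 8.56 and 8.91 in KO, again with overlap.

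Nsdhl and Hsd17b7 act in turn in removing the methyl groups at carbon 4 of the sterol. Nsdhl, on the X chromosome, read 9.06, 8.93, 8.99 and 8.80 in WT females and 10.25, 10.42, 10.17 and 10.39 in KO females, a rise of 1.36 ± 0.18 (limma, adjusted p = 9.64e-06). Its male groups spanned 8.59 to 9.12 (WT intact), 8.67 to 9.66 (KO intact), 8.71 to 9.43 (WT GDX) and 9.10 to 9.79 (KO GDX). Hsd17b7 read 5.69, 6.13, 6.06 and 6.50 in WT females and 8.40, 8.48, 8.38 and 8.83 in KO females, a rise of 2.43 ± 0.31 or 5.39-fold (limma, adjusted p = 6.27e-06). Its WT GDX arrays read 6.03, 7.49, 6.05 and 6.41, so array 2 alone reached the level of the KO GDX arrays (6.56, 7.86, 7.06 and 7.17). Intact males spanned 5.30 to 6.00 in WT and 5.53 to 6.86 in KO.

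Ebp encodes the sterol isomerase that moves the double bond of the B ring, and Sc5d the desaturase that follows it. Ebp, also X-linked, read 7.20, 7.30, 7.53 and 7.52 in WT females and 8.12, 8.47, 8.39 and 8.56 in KO females, the smallest rise of the 9 (1.00 ± 0.11, limma, adjusted p = 8.57e-07). Intact males were tightly grouped for Ebp, at 7.44, 7.44, 7.43 and 7.39 in WT and 7.59, 7.57, 7.63 and 7.53 in KO, which did not overlap though they differed by only 0.15. Sc5d read 9.56, 9.75, 9.79 and 9.59 in WT females and 10.74, 10.99, 11.09 and 11.24 in KO females, a rise of 1.34 ± 0.17 (limma, adjusted p = 5.38e-06). In males Sc5d spanned 9.11 to 9.66 (WT intact), 9.22 to 10.10 (KO intact), 9.19 to 9.75 (WT GDX) and 9.69 to 10.29 (KO GDX), with overlap of KO and WT in both.

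Dhcr7 encodes the reductase that turns 7-dehydrocholesterol into cholesterol, the last step. WT females read 10.55, 10.59, 10.47 and 10.42, and KO females 11.56, 11.65, 11.60 and 11.64, a rise of 1.10 ± 0.11 (limma, adjusted p = 2.99e-07). WT and KO intact males overlapped, at 10.83, 10.82, 10.56 and 10.80 and 11.07, 10.67, 10.87 and 10.99. GDX males did not: WT read 10.52, 10.52, 10.21 and 10.79 and KO read 11.00, 11.43, 11.32 and 11.41. The KO GDX arrays all stayed below those of KO females.

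In intact males 0 of the 9 genes were called by limma. All 9 estimates were above 0, from 0.15 (Dhcr7) to 0.83 (Sqle), with a median of 0.41. The median of all genes was -0.01, and 46% of all genes had an estimate above 0. Of the 9, 5 had an unadjusted p under 0.05 (Fdft1, Sqle, Cyp51, Hsd17b7 and Sc5d), as had 1080 of the 14411 genes, and the lowest adjusted p was 0.304 (Sqle, 0.83 ± 0.25, 95% interval 0.32 to 1.34). Few genes of any kind were called here: 0.111% of those tested. The arrays did not overlap for 1 of the 9 (Ebp), against 4.45% of all genes.

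In GDX males 1 of the 9 genes was called, Dhcr7, which rose by 0.78 ± 0.11 or 1.71-fold (limma, adjusted p = 0.000505). Of all genes tested 4.23% were called in either direction and 2.26% were called higher. The estimates for all 9 were above 0, from 0.18 (Nsdhl) to 0.84 (Sqle), with a median of 0.65, and 6 had an unadjusted p under 0.05, as had 2839 of all genes. Sqle (0.84 ± 0.25, limma, adjusted p = 0.0536) and Lss (0.71 ± 0.22, limma, adjusted p = 0.0688) lay just past the threshold. GDX arrays with the same replicate number deviated together, so the number was also taken as a block within these 2 groups. With that block Sqle (limma, adjusted p = 0.0355) and Lss (limma, adjusted p = 0.0429) were called as well, which makes 3 of 9. The arrays did not overlap for 2 of the 9 (Lss and Dhcr7), against 9.62% of all genes. KO GDX array 1 was the lowest of its group for all 9 genes, and without it 3 of the 9 were called. When only the GDX arrays entered the fit, 0 of the 9 were called and Dhcr7 had an adjusted p of 0.0568 (limma).

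**Figure D2:**
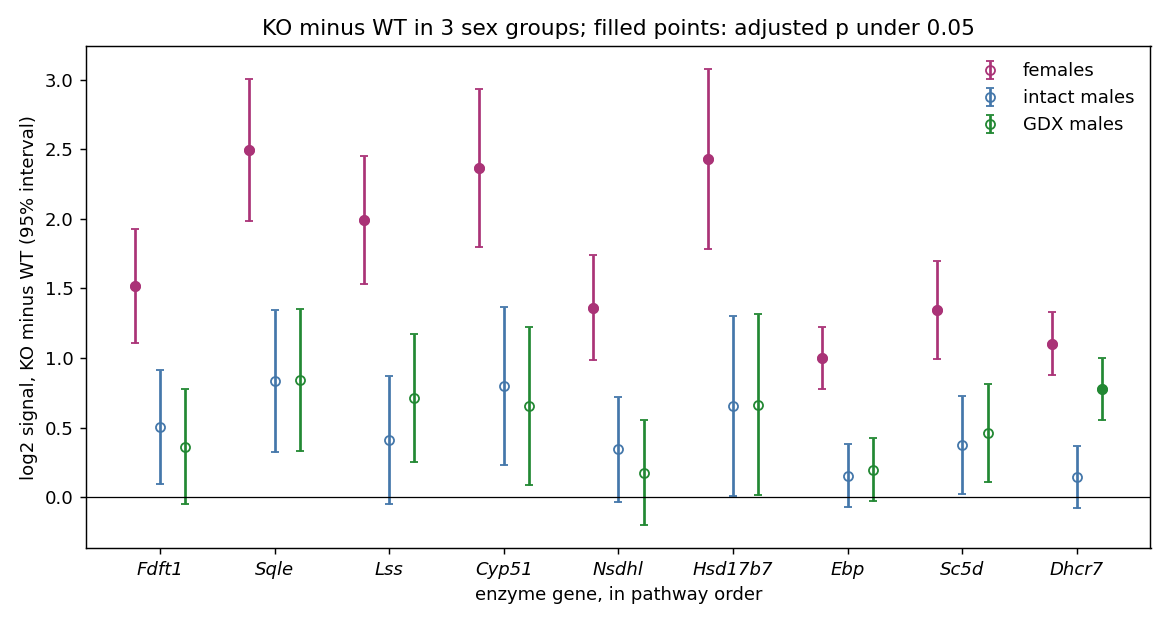
Log2 difference, KO minus WT, of each enzyme gene in females, intact males and GDX males, in pathway order, with the 95% interval from limma; filled points have an adjusted p under 0.05. All 9 female points are filled, from 1.00 to 2.50, against 0 in intact males and 1 (Dhcr7, 0.78) in GDX males.

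The KO effect was larger in females than in intact males for all 9 genes, by the contrast that tests this difference. The difference ran from 0.85 (Ebp, adjusted p = 0.00124) to 1.77 (Hsd17b7, adjusted p = 0.00995, limma). Its lowest adjusted p was that of Dhcr7 (0.96 ± 0.15, limma, adjusted p = 0.000519) and its highest that of Fdft1 (1.01 ± 0.28, limma, adjusted p = 0.0178). This contrast called 16.0% of all genes, 7.19% with the larger value in females. Against GDX males, whose comparison uses the same female arrays, 8 of the 9 had a larger effect in females, from 0.80 (Ebp) to 1.76 (Hsd17b7), with 3.31% of all genes called and 1.50% higher. Dhcr7 was the exception (0.33 ± 0.15, 95% interval 0.01 to 0.64, limma, adjusted p = 0.252). The count against GDX males rested on single arrays: it was 5 without WT female 1 or without WT GDX 4, and 4 without KO female 4, without WT GDX 2 or without KO GDX 1. Between GDX and intact males 0 of the 9 KO effects differed by limma, as against 0.0278% of all genes. Dhcr7 came nearest (0.63 ± 0.15, limma, adjusted p = 0.163) and was the 1 member with an unadjusted p under 0.05, which 1361 of all genes had.

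Markers of other cells moved with the same groups. Chromaffin cell markers of the medulla, of which Chgb and Chga were the brightest, fell in KO females for 7 of 9, and their mean was 9.69 to 10.08 in WT and 9.01 to 9.59 in KO females. The same mean was 9.79 to 10.21 in WT and 10.13 to 10.40 in KO intact males, and 9.60 to 10.37 in WT and 9.89 to 10.24 in KO GDX males. Adipocyte markers (Car3 and Fabp4 the brightest) fell for 5 of 8, with a mean of 8.58 to 9.97 in WT and 7.52 to 8.20 in KO females. Zona glomerulosa markers (Dab2 and Cyp11b2 the brightest) fell for 7 of 8, from 9.10 to 9.50 in WT to 7.29 to 7.75 in KO females. All 5 capsule markers fell, and 3 of 6 macrophage markers rose. Over all genes tested 18.7% were called lower and 13.9% higher in KO females. No marker of these 5 lists was dim on all arrays.

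When the mean of the medulla markers entered the model, all 9 enzyme genes still rose in KO females, by 0.87 (Ebp) to 2.20 (Sqle). The number of all genes called in that fit was 2508 in place of 4694. The contrast of the KO effect between females and intact males then called 1 of the 9, Dhcr7 (0.98, limma, adjusted p = 0.0190), and the contrast with GDX males called 0. The estimates of the calls lost in those fits were smaller but remained above 0, from 0.50 (Nsdhl) to 1.21 (Sqle) against intact males and from 0.59 (Sc5d) to 1.41 (Cyp51) against GDX males. The medulla marker means of KO females (9.01 to 9.59) overlapped neither those of WT females (9.69 to 10.08) nor those of KO males of either kind. The adjusted estimates, that of the female rise included, thus compare groups that share no level of this covariate. They cannot separate the KO effect from the medulla share. With the adipocyte marker mean as a covariate 9 of 9 were called in KO females and 9 of 9 for the difference from intact males. The difference from GDX males was then called for 6, without Lss (1.26, limma, adjusted p = 0.0524) and Hsd17b7 (1.74, limma, adjusted p = 0.0564). The part of glomerulosa, capsule and macrophage RNA in the female rise was not tested.

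Between WT females and WT males limma called none of these genes. Against WT intact males 0 of the 9 were called, with estimates from -0.27 (Lss) to 0.44 (Hsd17b7) and 1 unadjusted p under 0.05 (Dhcr7, -0.24 ± 0.11, limma, adjusted p = 0.184), while 7.75% of all genes were called and 3160 had an unadjusted p under 0.05. Against WT GDX males 0 were called and 0 had an unadjusted p under 0.05, with 0.902% of all genes called and 1655 at an unadjusted p under 0.05. Among KO mice the sexes stood apart. KO females were above KO intact males for 9 of 9 genes, from 0.71 (Dhcr7) to 2.21 (Hsd17b7, 4.62-fold), with 41.0% of all genes called and 17.8% higher. The arrays did not overlap for 9 of 9, against 16.5% of all genes that were higher without overlap. They were above KO GDX males for 9 of 9 as well, from 0.32 to 1.52 (Cyp51), with 18.4% of all genes called and 8.72% higher. Here 8 of 9 were higher without overlap, all but Ebp, against 9.60% of all genes. Dhcr7 was close to the threshold (limma, adjusted p = 0.041) and lost its call when KO GDX 1 (limma, adjusted p = 0.170), KO GDX 3 or any of the 4 KO female arrays was left out. Its call was also lost with the adipocyte covariate (limma, adjusted p = 0.245), and with another round of quantile normalization, no filter on dim genes or the groups alone (limma, adjusted p = 0.0587 to 0.0608). With the medulla marker mean as covariate these counts were 1 of 9 (Dhcr7) against KO intact males and 0 of 9 against KO GDX males.

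Set against intact males, GDX males had 1 member called by limma in KO and 0 in WT. The WT groups differed in Prkar1a genotype and Cre as well, so gonadectomy cannot be told apart from these there. In WT, 4.50% of all genes were called and 2565 had an unadjusted p under 0.05. The members' estimates there ran from -0.24 (Dhcr7) to 0.84 (Hsd17b7, limma, adjusted p = 0.141), and 2 had an unadjusted p under 0.05. In KO males Dhcr7 rose by 0.39 ± 0.11 (limma, adjusted p = 0.0179), with 15.4% of all genes called and 6.85% higher, though its arrays overlapped between the groups. That call was lost without KO male 2, KO GDX 2 or KO GDX 4. The replicate block within the GDX groups left 0 of 9, but that fit takes the GDX level at replicate 1. It therefore does not compare the group means and cannot decide whether the call holds. Hsd17b7 had the larger estimate, 0.85 ± 0.31 (limma, adjusted p = 0.0697), and was called as well without KO male 1 or KO GDX 1.

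The order of the group means was alike for the 9 genes at its upper end. KO females were highest and KO GDX males second for all 9, and limma called the step between them for all 9. With the medulla marker mean as covariate 0 of the 9 steps were called, and that of Dhcr7 had the further limits given above. Next came KO intact males for 6 genes and WT GDX males for the other 3, Nsdhl, Hsd17b7 and Ebp. The lowest mean was that of WT intact males for 5 genes and of WT females for 4 (Sqle, Lss, Ebp and Dhcr7). Between neighbouring groups below KO females, limma called 1 step, from KO GDX to KO intact males for Dhcr7. The distance from the lowest to the highest group mean was widest for Hsd17b7 (2.86), Cyp51 (2.66) and Sqle (2.50), and narrowest for Dhcr7 (1.10) and Ebp (1.00).

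Within a group the 9 genes tended to be high or low on the same arrays. KO GDX array 2 held the highest value of its group for 9 of 9 genes and array 1 the lowest for 9 of 9, while over all genes tested these arrays were highest and lowest for 27.2% and 29.1%. KO intact male array 1 was highest for 7 (21.6% of all genes) and array 2 lowest for 8 (22.9%). WT GDX array 1 was lowest for 8 (19.2%), and array 1 of WT females and of KO females was lowest for 7 in each (28.9% and 24.4%). As the mean of the 9 genes, each centred on its own mean over the 24 arrays, KO females spanned 1.10 to 1.39. KO GDX males spanned -0.18 to 0.66 and KO intact males -0.61 to 0.27. WT females lay between -0.63 and -0.41, WT intact males between -0.82 and -0.25, and WT GDX males between -0.64 and -0.02. KO female array 4 had both the lowest Prkar1a of the 24 arrays, 6.67, and the highest mean of the 9 genes. In that group, though, array 3 had the highest Prkar1a, 7.35, and array 1, at 7.30, the lowest mean. KO intact male array 1 had the lowest Prkar1a among males, 6.89, and the highest mean of its group. Array 3 of the KO intact males had the highest Prkar1a, 8.47, but array 2, at 8.08, the lowest mean. In the KO GDX group array 1 had the highest Prkar1a, 7.99, and the lowest mean, but array 2, with the highest mean, had the next highest Prkar1a, 7.66.

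**Figure D3:**
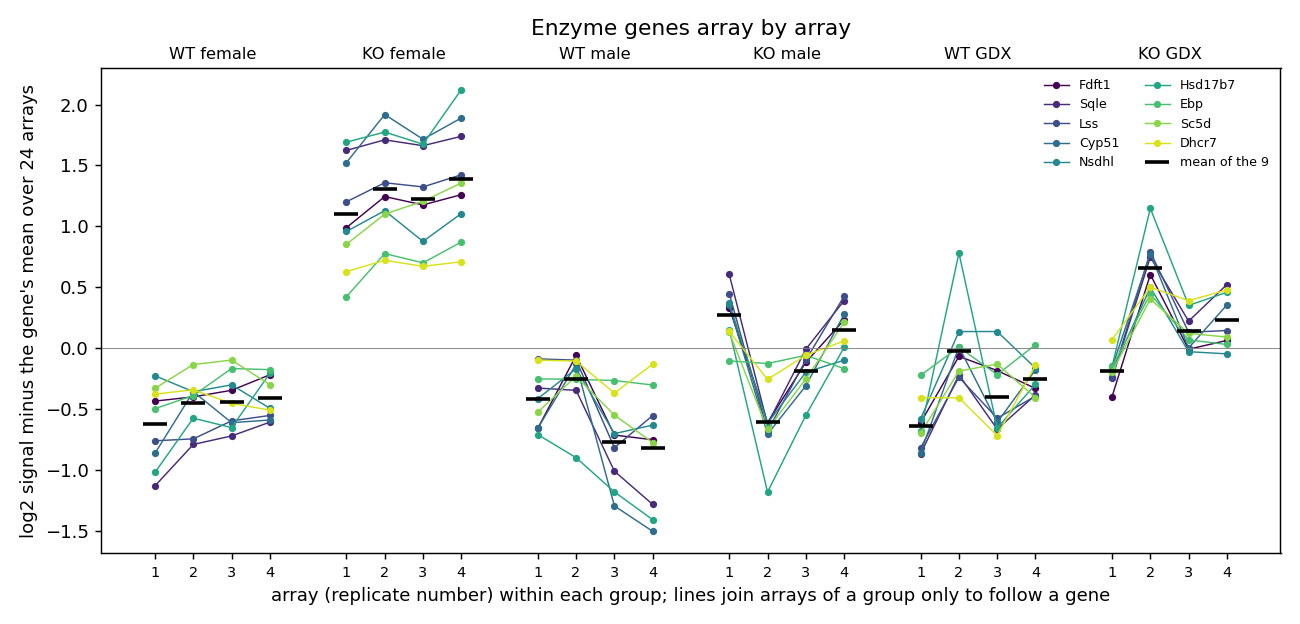
Log2 signal of each of the 9 enzyme genes minus its own mean over 24 arrays, by array (replicate number 1 to 4) within each group; black bars are the mean of the 9. The bars of KO females lie at 1.10 to 1.39 and those of the other groups at 0.66 or below, and in KO GDX males array 2 is the highest and array 1 the lowest for all 9 genes.

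Genes upstream of squalene were higher in KO females too. Of 9 mevalonate pathway enzymes listed, 6 were tested, 5 rose and 0 fell, with a list median of 1.09. Of all genes tested 13.9% rose and 18.7% fell. Fdps, farnesyl diphosphate synthase and the supplier of Fdft1's substrate, read 8.15, 8.63, 8.55 and 9.14 in WT and 10.60, 11.08, 11.12 and 10.96 in KO females, a rise of 2.33 ± 0.35 (limma, adjusted p = 3.14e-05). Mvd rose by 1.47 ± 0.17, Hmgcs1, the HMG-CoA synthase, by 1.38 ± 0.23, and Pmvk by 0.80 ± 0.20. Among the other sterol ring and side chain enzymes 2 of 3 tested rose: Msmo1, the methyl sterol oxidase that works between Cyp51 and Nsdhl (1.58 ± 0.20), and Tm7sf2, a sterol reductase (1.18 ± 0.12). Lbr, which shares that reductase activity and is named after its value was seen, had an estimate of 0.19 ± 0.11 (limma, adjusted p = 0.211).

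Of 7 genes of SREBP regulation 3 rose in KO females and 1 fell, where 13.9% of all genes rose and 18.7% fell. Srebf2, which encodes SREBP-2, rose by 0.57 ± 0.11, Insig2 by 0.35 ± 0.07 and Scap by 0.27 ± 0.08. Srebf1, whose product favours fatty acid genes, changed by -0.47 ± 0.13. Insig1, also named after its value was seen, had an estimate of 0.79 ± 0.31 with an adjusted p of 0.0531 (limma). Among 9 tested genes of cholesterol uptake, transport and esterification 2 rose, Stard4, a sterol carrier (1.01 ± 0.28), and Scarb1, the HDL receptor (0.93 ± 0.09), and 1 fell, Abca1, a cholesterol exporter (-0.75 ± 0.19). That share of genes called is close to the 32.6% over all genes.

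Of 6 fatty acid synthesis genes tested 3 fell in KO females, against 18.7% of all genes: Scd1 (-1.80 ± 0.34), Fasn (-1.75 ± 0.40) and Elovl6 (-0.99 ± 0.31), and 1 rose, Acly (0.34 ± 0.08), which makes cytosolic acetyl-CoA for both pathways. The other 2, Acaca (-0.47 ± 0.34) and Acss2 (-0.51 ± 0.30), are named after their values were seen and did not pass the test. Adipocytes express Scd1 and Fasn strongly, and their markers fell in the same arrays, as given above; the part of fat cells in the fall was not tested. Of 9 steroid hormone synthesis genes 5 rose, against 13.9% of all genes. Fdx1, the ferredoxin that feeds electrons to mitochondrial steroid hydroxylases (1.25 ± 0.11), and Mrap, the ACTH receptor's accessory protein (1.21 ± 0.11), moved most. Cyp21a1 (0.20 ± 0.06) and Cyp11a1 (0.18 ± 0.05) moved by little.

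In intact males limma called 0 genes of these 6 lists, as it called 0.111% of all genes. Fdps (0.61 ± 0.35), Hmgcs1 (0.52 ± 0.23) and Msmo1 (0.44 ± 0.20) had estimates in the range of the members there. The list medians were lower, 0.18 for the mevalonate enzymes and 0.19 for the other sterol enzymes, against 0.41 for the members. In GDX males 4 genes of the lists rose, where 2.26% of all genes tested did. They were Scarb1 (0.78 ± 0.09, limma, adjusted p = 0.000102), Mrap (0.76 ± 0.11), Fdx1 (0.45 ± 0.11) and Mvk, mevalonate kinase (0.38 ± 0.08). The list medians in GDX males were 0.15 (mevalonate enzymes) and 0.26 (other sterol enzymes), against 0.65 for the members. The KO effect was larger in females than in intact males for 3 of the 6 mevalonate enzymes and 2 of the 3 other sterol enzymes, against 7.19% of all genes. It was larger than in GDX males for 4 and 2, against 1.50% of all genes.

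**Figure D4:**
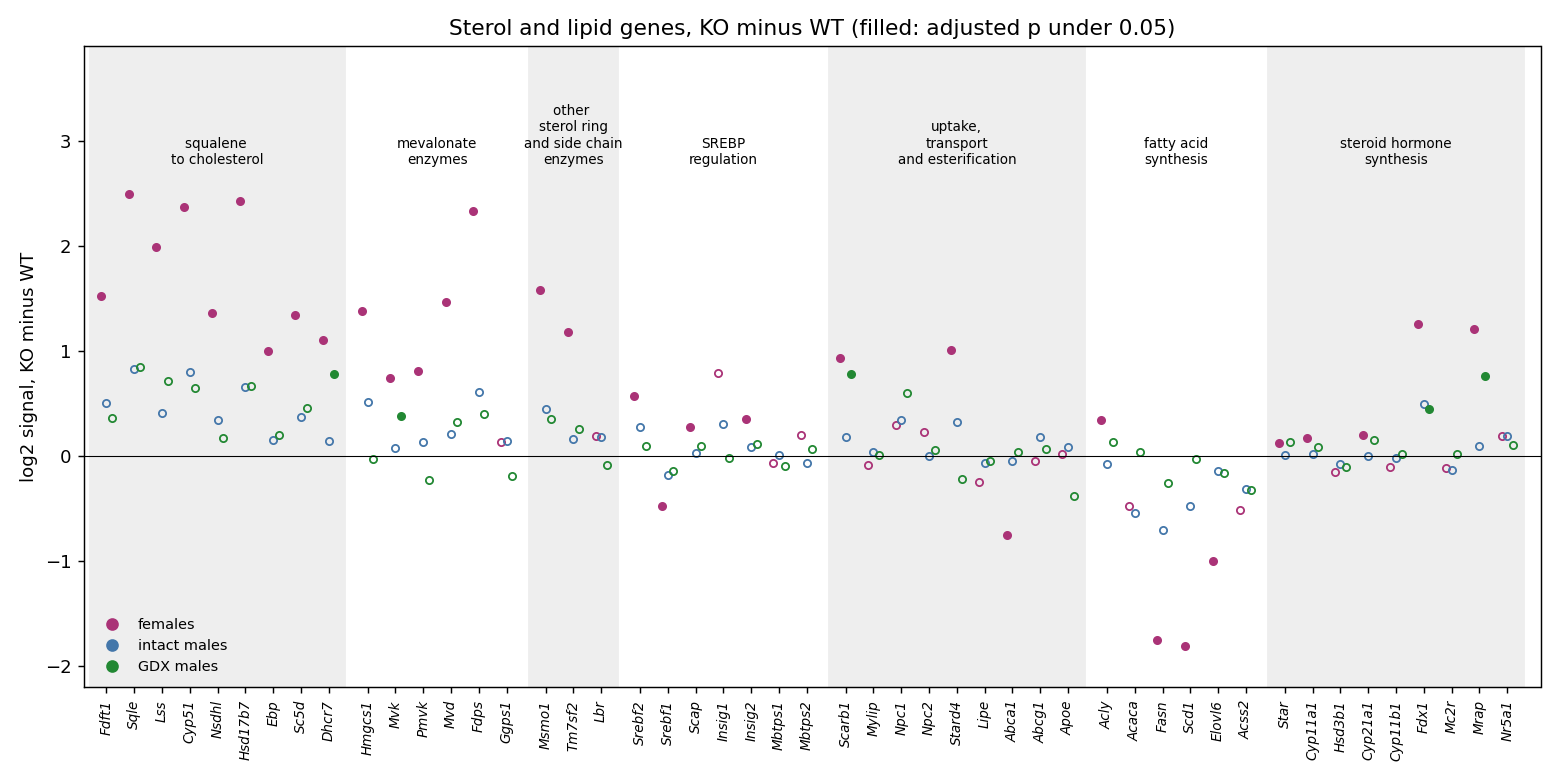
Log2 difference, KO minus WT, of the 9 enzyme genes and of 6 lists of related genes, in females, intact males and GDX males; filled points have an adjusted p under 0.05. Squalene to cholesterol genes and the mevalonate genes are mostly filled and above 0 in females, Scd1 and Fasn lie near -1.8 there, and 5 points are filled in GDX males.

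Over the 24 arrays the genes most like the 9 enzymes were named by the root mean square difference between a gene and the mean of the 9, each centred on its own mean. Msmo1 (0.15) and Mvd (0.20), both sterol enzymes, were nearest, and Hmgcs1 (0.29) was also among the nearest 10. The other 7 were Slc47a1, Tbc1d30, Ttk (a mitotic kinase), Csf2rb, Msr1 (a macrophage scavenger receptor), Pdlim5 and Avpi1, at 0.26 to 0.30. Slc47a1, Ttk and Csf2rb were dim, with means of 5.11, 5.01 and 5.23 in WT females, close to the array medians (5.20 to 5.29). Among the 9 themselves, each set against the mean of the other 8, Fdft1 was nearest (0.14), and Lss (0.19), Sc5d (0.20) and Nsdhl (0.23) followed. Hsd17b7 was farthest (0.47), then Dhcr7 and Ebp (0.39 each). The measure is not scaled, so it counts the size of changes as well as their pattern. The SD over the 24 arrays was 1.04 for Hsd17b7, 0.44 for Dhcr7 and 0.37 for Ebp. All 10 of the named genes rose in KO females, which the choice by likeness fixes, and in GDX males Slc47a1 (0.85 ± 0.17) and Pdlim5 (0.70 ± 0.12) rose as well.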

How the data were processed

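Whole-gland RNA, 500 ng per sample, was labelled with biotin by the GeneChip WT PLUS method, per the labels' protocols, and hybridised to 24 arrays, 4 in each of 6 groups. The deposited values are log2 signals that the authors made with RMA, per the submitters' processing notes; software, version and genome build were not given in the sources used here. No counts exist, so the number of arrays limits the precision.

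Of 32202 probe sets, 22943 carry 1 symbol. Genes with more than 1 probe set (828) were represented by the one with the highest mean, and genes over log2 5 in at least 4 arrays were tested. Contrasts of the 6 group means came from limma 3.58.1 in R 4.3.3 (lmFit and eBayes with default settings, 18 residual degrees of freedom, 12 contrasts), checked on simulated data. Changes are given ± the limma standard error, levels ± SD. The members, lists and motifs were chosen with earlier results of these data known. Named genes are the 9 members, Prkar1a, up to 4 called genes per list with the largest changes, the 10 genes most like the members and the brightest markers of each cell type. X-zone markers were called higher in KO for 1 of 2 tested in intact males and 0 of 2 in females and GDX males. In KO females 1 of 5 endothelial and 1 of 3 hepatocyte markers were called lower, and 0 of 2 kidney tubule markers were called.

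The labels give replicate numbers 1 to 4 in every group, and call the arrays biological replicates. Arrays with the same number deviated together in every pair only between WT and KO GDX males, where the correlation of their deviations from the group means was 0.12 to 0.24. This pairing rests on the values, since no label says what a number shares, and a block for it was added after seeing the data. Alternatives were another quantile round, median centring, other filters and probe set rules, array weights, marker means as covariates, the replicate block, only the groups compared and each array left out.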

Additional observations from a re-analysis of the deposited data

Results flagged for a closer look

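Values of 2 arrays stood far from the other 3 of their group, among 54 groups of 4 examined, where chance gives about 1 in 20. Fdft1 in WT intact male array 2 was 9.44, with the others at 8.75 to 8.84. Dhcr7 in WT intact male array 3 was 10.56, with the others at 10.80 to 10.83.

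The KO effect differed between females and intact males for all 9 genes by the limma contrast of the difference. It was larger in females by 1.01 for Fdft1, 1.66 for Sqle, 1.58 for Lss, 1.57 for Cyp51, 1.02 for Nsdhl, 1.77 for Hsd17b7, 0.85 for Ebp, 0.97 for Sc5d and 0.96 for Dhcr7 on the log2 scale. Between females and GDX males it differed for 8 genes, by 1.15 for Fdft1, 1.65 for Sqle, 1.28 for Lss, 1.72 for Cyp51, 1.19 for Nsdhl, 1.76 for Hsd17b7, 0.80 for Ebp and 0.88 for Sc5d. When the medulla markers' mean entered the fit, 1 of the 9 differences from intact males (Dhcr7) and 0 of those from GDX males were called. With 1 array left out, 4 to 8 of those from GDX males were called.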

How the results depend on the processing

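The 9 calls in KO females held under every alternative run, as did the 0 calls in intact males and in WT comparisons. Over all comparisons, 2331 alternative values of single members were computed. Of these, 2235 kept their side of the threshold, 83 lost a call and 13 gained one. Among called values 0 reversed, while 67 of the 2235, all uncalled, changed sign. These totals include values of the GDX block for GDX males against females or intact males, where the GDX level is that of replicate 1. In GDX males 1 member was called, against 2 with a filter at log2 6 or array weights, 3 with the medulla covariate or the block within the GDX groups, 0 with the 2 groups alone, and 1 to 3 with 1 array left out. The replicate block over all 24 arrays called 9 members in females, 0 in intact males, 1 in GDX males and 7 for the difference between females and GDX males, where Sc5d lost its call; it changed no other call. Sc5d lost it too with another quantile round or no dim-gene filter, and Lss and Hsd17b7 with the adipocyte covariate (6 left). The medulla covariate left 1 of 9 for KO females against KO intact males and for the difference of their KO effects, and 0 for both contrasts with GDX males; the cause was not tested. With 1 array left out, the difference between females and GDX males held for 4 to 8 members. GDX against intact KO males gave 2 members with array weights, 0 with the groups alone and 0 to 2 with 1 array left out. The GDX block gave 0 there, but it takes the GDX level at replicate 1 and so does not compare the group means. The difference of KO effects between GDX and intact males gave 1 (Dhcr7) with array weights and 0 to 1 with 1 array left out. Genes called in KO females fell from 4694 to 2508 with the medulla covariate. Those in intact males went from 16 to 10 (medulla), 26 (adipocyte covariate), 0 (groups alone) and 4 to 24 (1 array left out). Those in GDX males went from 609 to 1200 with array weights, 49 with the groups alone and 214 to 1180. With arrays normalized again or centred, the median change over all genes was at most 0.03 in size in any comparison. Signal of the 9 genes stood over log2 5 on every array, but that level lies below the array medians (5.20 to 5.29). Hsd17b7 read 5.30 to 6.00 in WT intact males, close to those medians. Whether background narrows its differences from that group was not tested.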
